A study of Mus musculus with 10 samples.

Results

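Transcript levels of the glutathione, thioredoxin and antioxidant enzyme genes were described in heart RNA from *Rit1* M90I/+ mice given the MEK inhibitor (MEKi) trametinib or vehicle. The genes were taken by name, with earlier results of these data known. The set held the protein-coding genes named as glutathione S-transferases (*Gsta*, *Gstk*, *Gstm*, *Gsto*, *Gstp*, *Gstt*, *Gstz*), microsomal glutathione S-transferases (*Mgst*), glutathione peroxidases (*Gpx*), peroxiredoxins (*Prdx*), thioredoxins (*Txn*) and thioredoxin reductases (*Txnrd*), together with *Txnip*, *Sod1* to *Sod3*, *Cat*, *Gclc*, *Gclm*, *Gsr*, *Gss*, *Hmox1* and *Nqo1*. This gave 56 of the 54532 genes in the deposited table. Of the 56, 47 passed a mean of at least 0.5 FPKM (fragments per kilobase of gene length, scaled to the depth of the library) over the 10 hearts and were tested. The other 9 fell below it, and 4 of those were listed at 0 in every heart.

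All 10 mice were heterozygous for *Rit1* M90I, a gain-of-function allele of a RAS-family GTPase that causes a Noonan syndrome-like disease with cardiac hypertrophy, so the comparison holds no wild-type heart. According to the study's methods, males homozygous for the conditional allele were mated with females homozygous for a CMV-Cre deleter transgene. Their offspring were the treated mice and would also carry the Cre transgene. The paper calls the variant germline, so it was not confined to cardiomyocytes. The 5 trametinib mice received 1 mg/kg of this allosteric inhibitor of MEK1 and MEK2 once daily for 20 weeks from 4 weeks of age, and the 5 vehicle mice received the carrier on the same schedule. Hearts were taken at the end of treatment, on the day of a last morning dose. The methods state that littermates of both sexes were included in the study. The labels give neither strain nor sex for any heart.

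Cells dispose of hydrogen peroxide and lipid peroxides through a pair of parallel thiol systems. Glutathione, a tripeptide whose synthesis begins with the glutamate-cysteine ligase subunits encoded by *Gclc* and *Gclm*, is oxidised by the glutathione peroxidases and conjugated to electrophiles by the glutathione S-transferases, and thioredoxin passes electrons from NADPH to the peroxiredoxins. Superoxide dismutases and catalase act upstream and beside them, and many of these genes are driven by the transcription factor Nrf2 through antioxidant response elements. In heart muscle, which runs on mitochondrial respiration, the mitochondrial forms (*Prdx3*, *Txn2*, *Txnrd2*, *Sod2*) work beside the respiratory chain, a main source of superoxide.

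Some members can be recognised in the sequence itself. Several peroxidases and all thioredoxin reductases carry selenocysteine at the active site, read from an in-frame TGA that elsewhere means stop. The codon was located in the annotated transcripts (GENCODE M21, build GRCm38), and it is shown for the 6 tested members that hold it, because these members are grouped below. Each line runs 5′ to 3′ on the coding strand with the selenocysteine codon in capitals. All of these genes lie on the forward strand, and the TGA is in the coding exon at chr9:108339451-108339453 for *Gpx1*, chr11:54907256-54907258 for *Gpx3*, chr10:80054737-80054739 for *Gpx4*, chr10:82896037-82896039 for *Txnrd1*, chr16:18477772-18477774 for *Txnrd2* and chr6:89674789-89674791 for *Txnrd3*.
Gpx1: aatgtcgcgtctctcTGAggcacc
Gpx3: aacgtagccagctacTGAggtctg
Gpx4: aacgtggcctcgcaaTGAggcaaa
Txnrd1: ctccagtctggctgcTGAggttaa
Txnrd2: actgtgactggttgcTGAggctaa
Txnrd3: actcagaaaggctgcTGAggctag
In the reductases the codon sits at the end of the open reading frame and is followed by a single glycine codon and a stop, whereas in the peroxidases it lies inside the frame. *Gpx7* and *Gpx8*, the other peroxidases tested, have no such codon.

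The second sequence feature is the core of the antioxidant response element, searched as TGACNNNGC on both strands from 250 bases before to 50 bases after each RefSeq start site (GRCm38.p6). A promoter was given for 48 of the 56 members. Of these, 8 held the letters (16.7%), against 3781 of the 27025 genes with a promoter of that length (14.0%). The 8 were *Gclm*, *Gsta3*, *Gstm5*, *Gstm7*, *Mgst1*, *Prdx1*, *Sod1* and *Txnrd1*. The match is a description of letters and not of a bound site. The 4 matches that belong to members described one by one below are shown on the forward strand of the genome, with the core in capitals.
Gclm: ctcccgggcGCACCGTCAactctcacg
Gstm5: accgcccacTGACCACGCggagggcgg
Mgst1: cggggcttgGCACGGTCAggaggcggg
Txnrd1: tggatttttGCTTTGTCAttctgacac
All 4 genes are on the forward strand. The *Gclm* window is chr3:122245414-122245440, with the core on the reverse strand 134 bases before the start site and upstream of the annotated gene. The *Gstm5* window is chr3:107895803-107895829, with the core on the forward strand 42 bases before the start site, and its end touches the first annotated *Gstm5* exon and an exon of the antisense gene *4933431E20Rik*. The *Mgst1* window is chr6:138140462-138140488, with the core on the reverse strand 56 bases before the start site and overlapping an exon of a transcript annotated to start further upstream. The *Txnrd1* window is chr10:82859105-82859131, with the core on the reverse strand 92 bases before the start site and in an intron of a transcript annotated to start further upstream.

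Multiplied by gene length, the deposited FPKM values of each heart were whole multiples of the value of 1 fragment (100% within 0.01), which gave 13647167 to 16659254 fragments per vehicle heart and 14868373 to 18474002 per trametinib heart. Cardiomyocyte markers were high throughout, with the 7 listed genes summing to 15146 to 20801 FPKM in vehicle and 14976 to 20504 FPKM in trametinib hearts. Some hearts stood apart. The sum of 6 atrial markers was 898.2, 422.8 and 740.4 FPKM in vehicle 4, vehicle 5 and trametinib 2 and between 13.7 and 59.0 FPKM in the other 7. The sample titles say only heart and do not name the chambers taken. Red-cell transcripts, led by the globins, summed to 23642 and 25876 FPKM in vehicle 4 and vehicle 5 and to between 2899 and 7387 FPKM elsewhere, and vehicle 3 had the highest share of fragments from mitochondrial genes (35.0%, against 24.0% to 31.1% in the others). The sum of 6 adipocyte markers was 102.0 FPKM in vehicle 4 and in trametinib 2 and between 0.559 and 31.4 FPKM in the others. Sex-linked transcripts split the groups completely: *Xist* reached at most 2 fragments in any vehicle heart and at least 1456 in every trametinib heart, and *Ddx3y*, *Eif2s3y*, *Uty* and *Kdm5d* were expressed in every vehicle heart and at 0 in every trametinib heart. The labels do not give sex, and a difference between treatments cannot be told apart from a difference between hearts with and without these transcripts in any value below. In whole tissue, fewer cells of a type and less RNA per cell cannot be told apart either.

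None of the 47 members passed the test (limma on log2 of FPKM plus 0.1, Benjamini-Hochberg adjusted over all 12602 genes tested, threshold 0.05), where 10 of all genes did (0.0794%, of which 0.0238% higher and 0.0555% lower with trametinib). Of the sex-linked markers above, 4 were among those 10, and 0 genes passed without X, Y and mitochondrial genes. The smallest adjusted p of any member was 0.554. At an unadjusted limma p under 0.05 there were 4 members (8.51%), against 7.62% of all genes, a share near the background. *Txnrd3* and *Gsta1* were on the higher side in trametinib hearts and *Sod3* and *Mgst1* on the lower, 4.26% of the members each way, where 3.67% of all genes were on the higher side and 3.94% on the lower at that p. In no member were the 5 trametinib values all above or all below the 5 vehicle values, which was so of 1.64% of all genes. All members were measured in the same 10 libraries and are not independent of each other.

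The members' fold changes were small. They ran from −0.46 to 0.88 on the log2 scale, with a median of 0.08 against 0.01 over all genes, and 34 of the 47 (72.3%) were above 0, against 52.1% of all genes. The members' median was 0.04 without vehicle 3 and 0.12 without vehicle 1. With the filter raised to 5 FPKM, 24 of 36 members were above 0, against 59.2% of the 5161 genes left. The medians were then 0.07 for the members and 0.03 for all genes left, so the members' lean over the background was smaller. The count above 0 was 30 of 47 after quantile normalization and 40 of 47 after rescaling each heart to the same FPKM total, where 52.2% and 67.4% of all genes were above 0. The median residual SD was 0.23 log2 units for the members and 0.25 for all genes. The 95% interval lay within 2-fold in both directions for 44 of the 47 members (93.6%, against 88.9% of all genes) and within 1.5-fold for 31 (66.0%, against 64.6%). The 3 with wider intervals were *Gsta1*, *Gsta3* and *Gsto2*, which had mean levels under 5 FPKM.

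**Figure D1:**
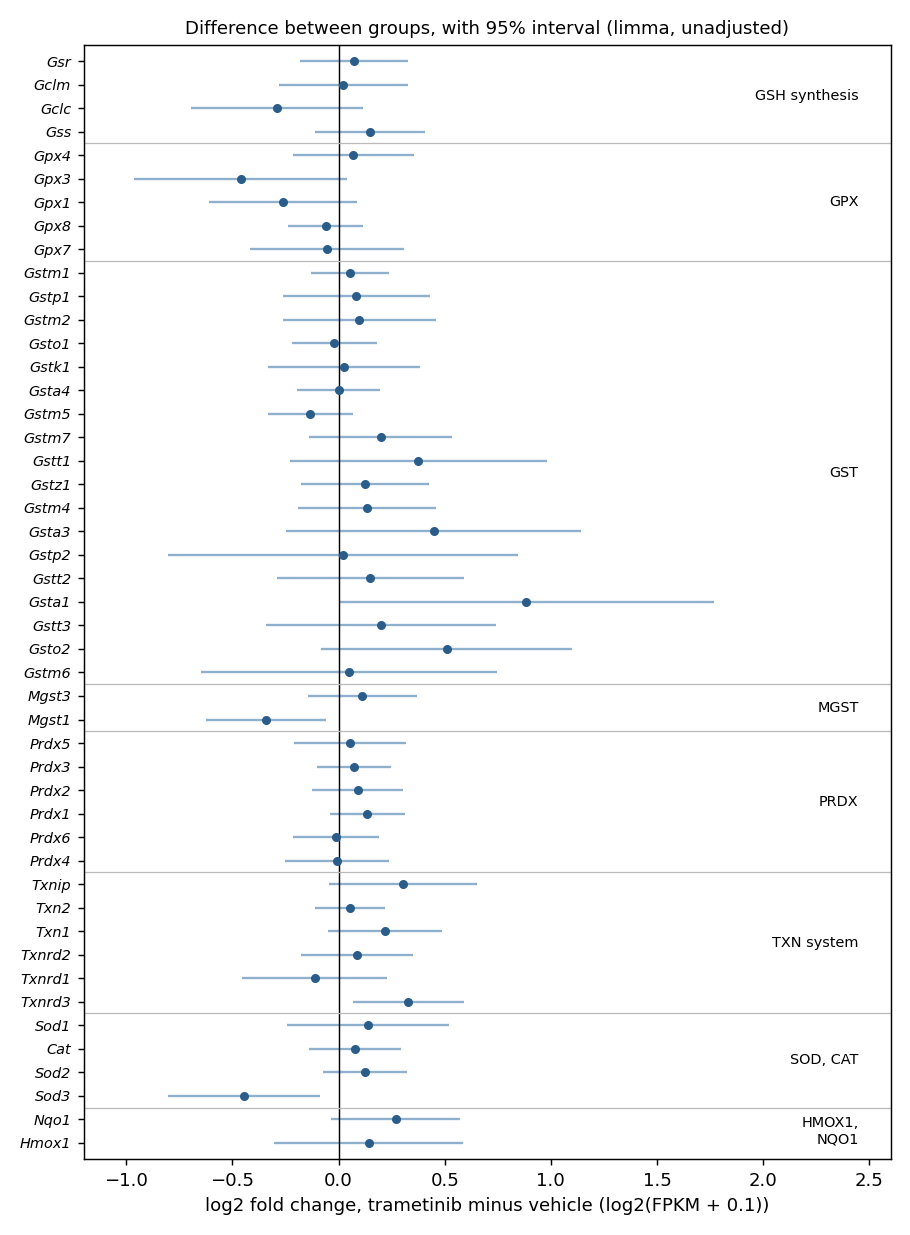
Log2 fold change, trametinib minus vehicle, of the 47 tested members, grouped by role, with points for the estimate and bars for the 95% interval of the limma fit (n = 5 hearts a group). Estimates run from −0.46 (*Gpx3*) to 0.88 (*Gsta1*), most lie within 0.3 of 0, and none passed the adjusted threshold.

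The summed level of the system overlapped between the groups. The 56 members summed to 3003 ± 255 FPKM in vehicle hearts (SD, n = 5, range 2596 to 3257) and 3059 ± 184 FPKM in trametinib hearts (range 2757 to 3223). This was 1.11% to 1.21% of the FPKM of all nuclear protein-coding genes in vehicle and 1.12% to 1.20% in trametinib hearts, so the ranges nearly coincided. Levels between genes are compared here per length, as FPKM. The sum was carried by few genes. *Gpx4* ranked 84th among the 12602 genes by mean level, *Mgst3* 162nd, *Prdx5* 228th and *Gpx3* 269th, whereas the genes for glutathione synthesis and recycling each had mean levels of 6 FPKM or less.

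**Figure D2:**
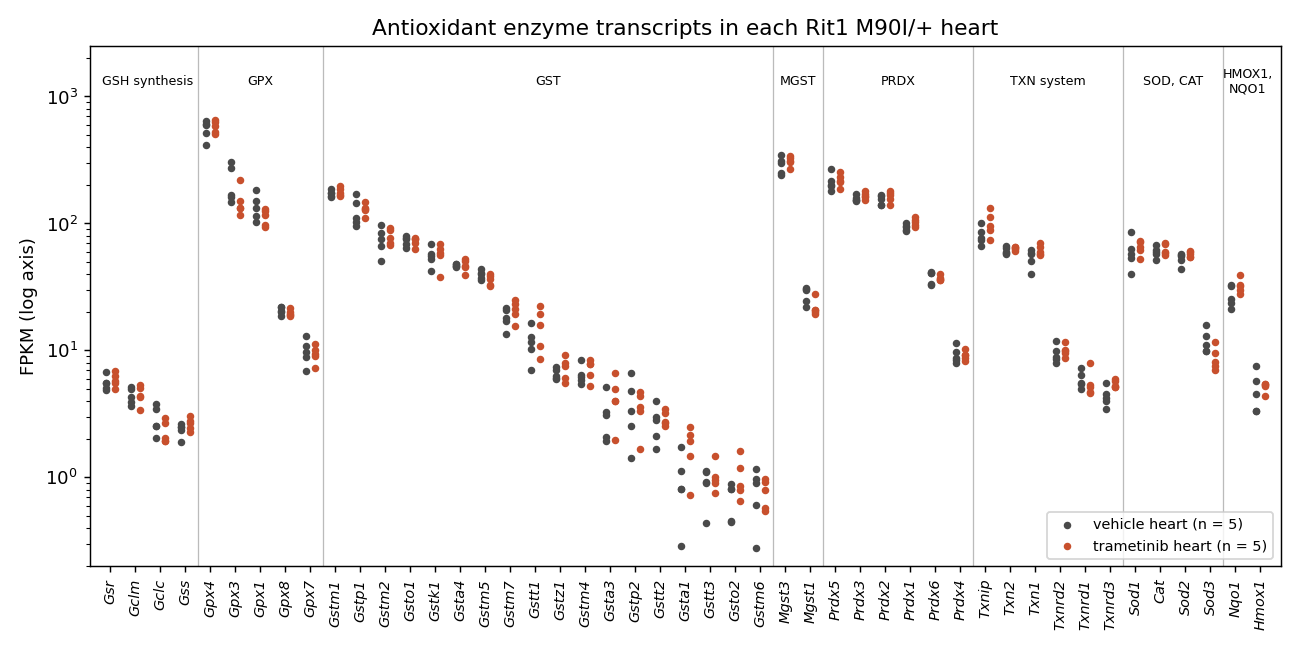
FPKM of the tested members in each heart on a log scale, grouped by role, with vehicle and trametinib hearts in different colours and 1 point per heart. *Gpx4*, *Mgst3*, *Prdx5* and *Gpx3* are at the top, *Gclc*, *Gss*, *Gclm* and *Gsr* sit between 1.90 and 6.86 FPKM, and the points of both groups overlap for every gene.

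Glutathione synthesis and recycling was the lowest-expressed role. Its 4 genes summed to 15.2 ± 1.97 FPKM in vehicle and 15.3 ± 1.85 FPKM in trametinib hearts, with 3 log2 fold changes above 0 and 1 below, and a median of 0.05. *Gclc* (chr9:77754535-77794485, forward strand), the catalytic and rate-limiting subunit of glutamate-cysteine ligase, was at 2.04, 2.54, 2.52, 3.47 and 3.81 FPKM in vehicle hearts 1 to 5 and 1.95, 1.93, 2.04, 2.95 and 2.69 FPKM in trametinib hearts 1 to 5. The highest hearts were vehicle 4 and vehicle 5, and the groups overlapped (means 2.88 ± 0.738 and 2.31 ± 0.474, log2 fold change −0.29, SE 0.19, adjusted p = 0.757). Without the 3 hearts rich in atrial transcripts its log2 fold change was 0.01, and without vehicle 5 alone it was −0.18. Without vehicle 1 alone it moved the other way, to −0.40. *Gclm* (chr3:122245557-122270732, forward strand), the modifier subunit that raises the ligase's affinity for glutamate, was at 3.66, 3.95, 4.28, 5.17 and 4.96 FPKM in vehicle and 3.39, 5.31, 4.34, 4.32 and 5.09 FPKM in trametinib hearts. Its ranges lay almost on top of each other, with a log2 fold change of 0.02 (95% interval −0.28 to 0.33, adjusted p = 0.979), and its exons overlap *Gm6061* on the same strand and *Gm17494* on the opposite one. *Gss*, glutathione synthetase, had means of 2.37 ± 0.279 and 2.64 ± 0.289 FPKM, and *Gsr*, the reductase that regenerates glutathione with NADPH, had 5.57 ± 0.750 and 5.87 ± 0.724 FPKM. Neither differed beyond the spread between hearts (log2 fold changes 0.15 and 0.07, adjusted p = 0.808 and 0.917).

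The glutathione peroxidases were dominated by 3 selenoenzymes. *Gpx1*, *Gpx3* and *Gpx4* made 96.1% to 97.5% of the family's FPKM in each heart, and *Gpx4* alone 53.7% to 69.2%. The family summed to 934.2 ± 179 FPKM in vehicle and 871.4 ± 111 FPKM in trametinib hearts, and 4 of the 5 tested peroxidases had log2 fold changes below 0. *Gpx4* (chr10:80047166-80056439, forward strand), which reduces phospholipid hydroperoxides in membranes and is the central brake on ferroptosis, was at 600.0, 516, 416, 605 and 639 FPKM in vehicle and 526, 650.0, 625, 588 and 506 FPKM in trametinib hearts. Vehicle 3 was lowest and the other 9 hearts lay between 506 and 650.0 FPKM (log2 fold change 0.07, 95% interval −0.22 to 0.36, adjusted p = 0.934). Of the 31-base windows of its longest transcript, 66.8% occur in another annotated gene, mainly the pseudogene *Gpx4-ps2*, so its level can depend on how shared fragments were counted.

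*Gpx3* had the most negative log2 fold change of all members. It encodes the secreted peroxidase of plasma, which is also made in the heart, and lies at chr11:54902453-54910377 on the forward strand. Its level was 160.5, 168, 149, 307 and 275 FPKM in vehicle hearts 1 to 5 and 133, 219, 151, 133 and 117 FPKM in trametinib hearts 1 to 5. Vehicle 4, vehicle 5 and trametinib 2 were the 3 highest hearts, and vehicle 1, 2 and 3 lay inside the trametinib range. The means were 212 ± 73.5 and 151 ± 39.9 FPKM (SD, n = 5), with a log2 fold change of −0.46 (SE 0.23, 95% interval −0.96 to 0.04, adjusted p = 0.668). Those 3 hearts are the 3 with the highest atrial sums (898.2, 422.8 and 740.4 FPKM), and *Gpx3* was the only 1 of the 47 members whose 3 highest hearts were these. The share of all genes with the same 3 highest hearts was not counted. Vehicle 4 and trametinib 2 also had the highest adipocyte sums (102.0 FPKM each), whereas vehicle 5 had 0.950 FPKM, and vehicle 4 and vehicle 5 were the globin-rich hearts. Without these 3 hearts, which hold its highest values, the log2 fold change of *Gpx3* was −0.26. Leaving out 1 heart, it was −0.31 without vehicle 4 and −0.35 without vehicle 5. It was −0.60 without trametinib 2 and −0.57 without vehicle 3. The part of atrial, adipocyte or red-cell RNA in its level was not tested.

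*Gpx1* (chr9:108338903-108340343, forward strand), the main peroxidase of the cytosol and mitochondria and a gene very highly expressed in red cells, was at 114, 131, 103, 184 and 149.6 FPKM in vehicle and 116, 125, 131, 97.4 and 93.0 FPKM in trametinib hearts. Vehicle 4 and vehicle 5, the hearts with the highest globin sums, were the highest, and no trametinib heart was above the vehicle median, though the groups overlapped (means 136 ± 31.9 and 112 ± 16.7, log2 fold change −0.26, SE 0.16, adjusted p = 0.741). Without vehicle 4, vehicle 5 and trametinib 2 the log2 fold change was −0.09, without vehicle 4 alone it was −0.15, and the part of red-cell RNA was not tested. *Gpx8* and *Gpx7*, peroxidases of the endoplasmic reticulum without selenocysteine, had vehicle means of 20.6 ± 1.36 and 9.88 ± 2.28 FPKM and trametinib means of 19.7 ± 1.23 and 9.41 ± 1.48 FPKM. *Gpx8* was among the steadiest members, with a coefficient of variation of 6.45% over the 10 hearts. *Gpx2*, *Gpx5* and *Gpx6*, known from gut epithelium, epididymis and olfactory tissue, were listed at 0 in every heart, which allows up to 3 fragments in each, for counting error only.

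**Figure D3:**
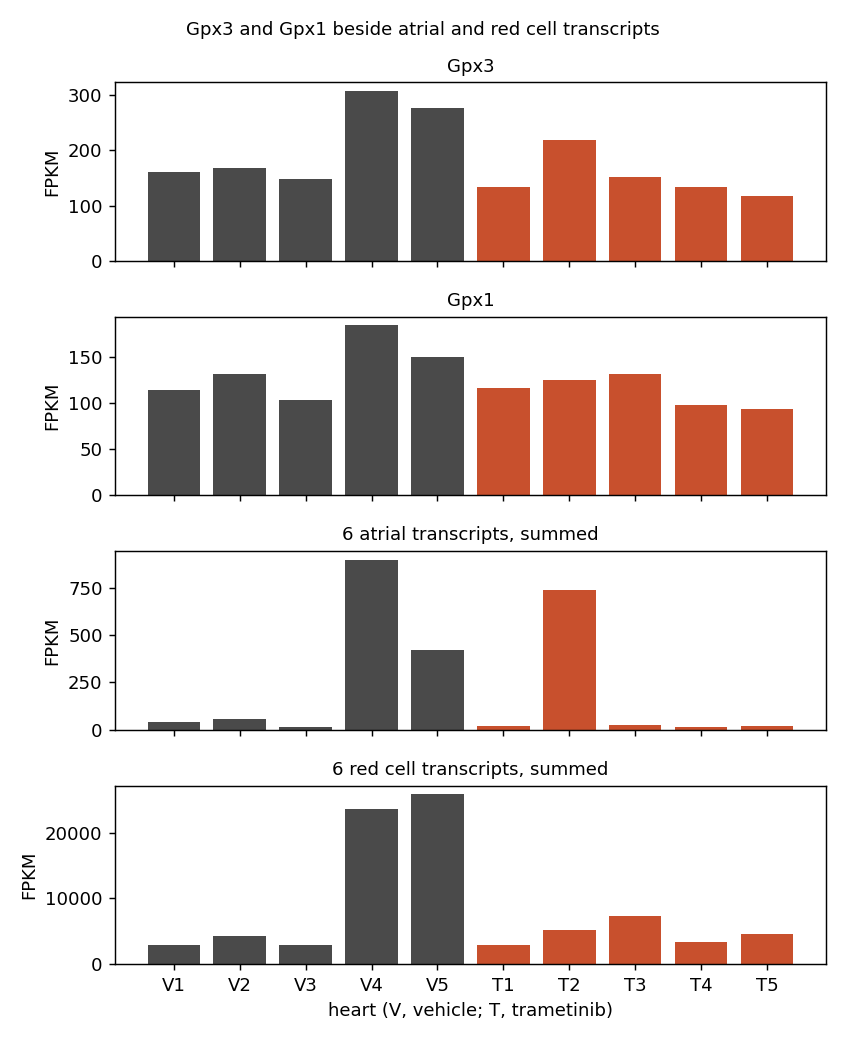
*Gpx3* and *Gpx1* (FPKM) and the summed FPKM of the atrial and the red-cell markers in each of the 10 hearts, 1 bar per heart. Vehicle 4, vehicle 5 and trametinib 2 are the 3 highest hearts for *Gpx3* (307, 275 and 219 FPKM) and for the atrial sum, and vehicle 4 and vehicle 5 lead *Gpx1* and the red-cell sum.

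The peroxiredoxins, which reduce peroxides with electrons from thioredoxin, were even across hearts. They summed to 663.5 ± 41.6 FPKM in vehicle and 697.5 ± 39.1 FPKM in trametinib hearts, and *Prdx1*, *Prdx2*, *Prdx3* and *Prdx5* made 92.2% to 93.9% of this. Fold changes of the 6 tested ran from −0.01 to 0.14, the narrowest range of any role with more than 4 genes. *Prdx5* (chr19:6906697-6910106, reverse strand), found in mitochondria, peroxisomes and cytosol, was at 267, 197, 180.0, 215 and 201 FPKM in vehicle and 212, 230.3, 215, 253 and 185 FPKM in trametinib hearts. The extremes of both groups overlapped widely (log2 fold change 0.05, 95% interval −0.21 to 0.32, adjusted p = 0.946), and its exons overlap *Trmt112* on the opposite strand. *Prdx3* (chr19:60864051-60874556, reverse strand), the mitochondrial form, was at 153, 172, 159.8, 153 and 149 FPKM in vehicle and 179, 164, 162, 171 and 153 FPKM in trametinib hearts. Every heart lay between 149 and 179 FPKM, and the log2 fold change was 0.07 (95% interval −0.10 to 0.25, adjusted p = 0.867).

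*Prdx2* (chr8:84969587-84974834, forward strand), a cytosolic form abundant in red cells, was at 167, 140.3, 139, 156 and 166 FPKM in vehicle and 155, 175, 168, 179 and 140.2 FPKM in trametinib hearts. Unlike *Gpx1* it was not highest in the globin-rich hearts (log2 fold change 0.09, SE 0.10, adjusted p = 0.869), and its exons overlap *Junb* and *Rnaseh2a* on the opposite strand. *Prdx1*, cytosolic and a known Nrf2 target, had means of 93.5 ± 5.58 and 103 ± 7.15 FPKM (log2 fold change 0.14, adjusted p = 0.736). *Prdx6*, which uses glutathione, had means of 37.6 ± 4.36 and 37.1 ± 1.75 FPKM, and *Prdx4*, the secretory-pathway form on the X chromosome, 9.26 ± 1.43 and 9.16 ± 0.783 FPKM. *Prdx6b* was listed at 0 in every heart.

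The thioredoxin system was the role with the largest median fold change among those with at least 4 genes (0.15, with 5 of 6 above 0), and its sum was 215.4 ± 19.1 FPKM in vehicle and 246.8 ± 18.3 FPKM in trametinib hearts. *Txnip*, an arrestin that binds and inhibits thioredoxin and limits glucose uptake, made 32.7% to 48.1% of it. None of its genes passed the test. *Txnrd3* (chr6:89643988-89675529, forward strand), a selenoenzyme with an added glutaredoxin domain best known from testis, was at 3.48, 4.55, 5.56, 4.23 and 4.02 FPKM in vehicle hearts 1 to 5 and 5.18, 5.14, 5.26, 5.93 and 5.74 FPKM in trametinib hearts 1 to 5. The groups overlapped only through vehicle 3, which was above 3 of the trametinib hearts and had the highest share of mitochondrial fragments. The means were 4.37 ± 0.770 and 5.45 ± 0.363 FPKM (SD, n = 5, 166 to 301 fragments per heart) and the log2 fold change 0.33 (SE 0.12, 95% interval 0.07 to 0.59, adjusted p = 0.554). Leaving out vehicle 3 gave the lowest adjusted p it reached under any setting, 0.277.

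*Txnip* (chr3:96557957-96561883, forward strand) was at 100.5, 86.4, 77.1, 65.8 and 73.7 FPKM in vehicle and 113, 88.7, 131, 73.9 and 95.5 FPKM in trametinib hearts. Trametinib 1 and trametinib 3 were above every vehicle heart and the other 3 lay within the vehicle range (means 80.7 ± 13.3 and 100.4 ± 22.2, log2 fold change 0.30, SE 0.16, adjusted p = 0.695, or 0.20 without trametinib 3), and its exons overlap *Gm15441* on the opposite strand. *Txn1* (chr4:57943373-57956411, reverse strand), cytosolic thioredoxin, was at 58.8, 50.3, 40.1, 57.6 and 62.0 FPKM in vehicle and 59.8, 70.2, 56.7, 65.4 and 57.8 FPKM in trametinib hearts. Vehicle 3 was again lowest, and the groups overlapped (means 53.8 ± 8.77 and 62.0 ± 5.71, log2 fold change 0.22, 95% interval −0.05 to 0.49, adjusted p = 0.715, or 0.12 without vehicle 3). *Txnrd1* (chr10:82833951-82897712, forward strand), the cytosolic reductase, was at 5.00, 5.52, 7.33, 5.47 and 6.45 FPKM in vehicle and 5.18, 4.62, 4.72, 5.36 and 7.90 FPKM in trametinib hearts. Trametinib 5 was highest and the other 4 trametinib hearts lay below the vehicle median (log2 fold change −0.11, 95% interval −0.45 to 0.23, adjusted p = 0.905), with −0.25 without trametinib 5 and −0.04 without vehicle 3. The mitochondrial pair was steady: *Txn2* had the lowest coefficient of variation of all tested members (5.20%, means 61.2 ± 3.94 and 63.5 ± 2.20 FPKM), and *Txnrd2* had means of 9.43 ± 1.56 and 9.97 ± 1.09 FPKM.

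**Figure D4:**
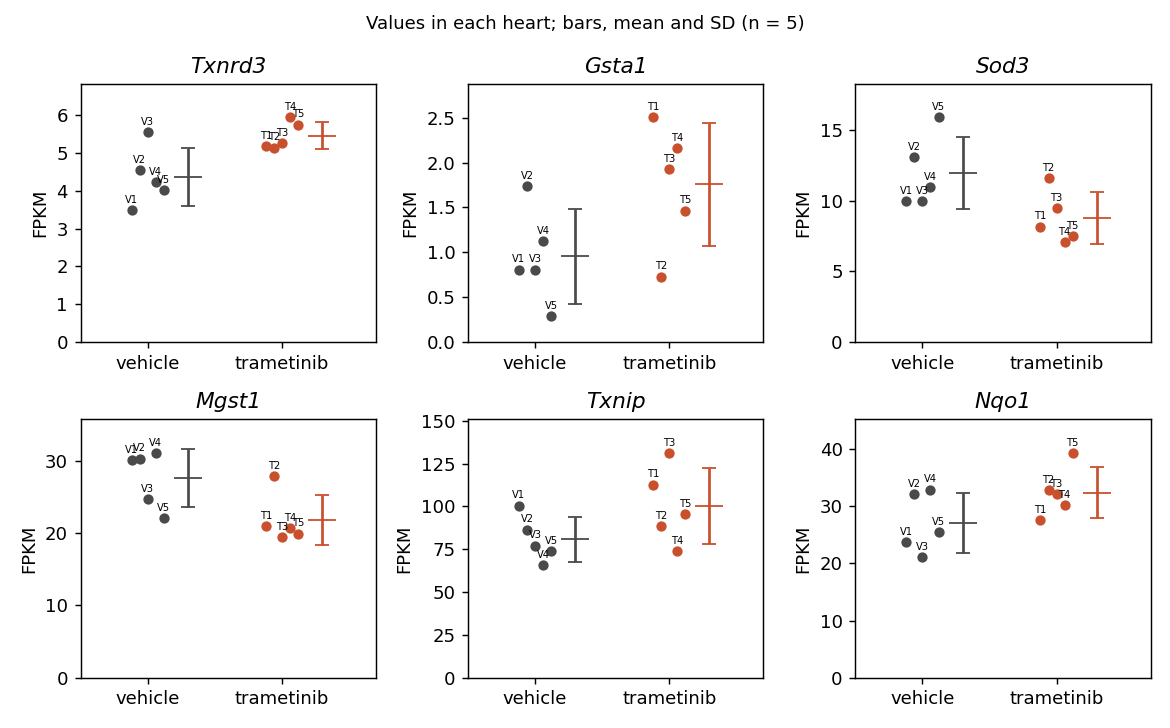
FPKM of *Txnrd3*, *Gsta1*, *Sod3*, *Mgst1*, *Txnip* and *Nqo1* in the 5 vehicle and 5 trametinib hearts, 1 point per heart with the group mean and SD. For *Txnrd3* the overlap is vehicle 3 alone, for *Mgst1* trametinib 2 stands at 27.9 FPKM above the other 4 at 19.5 to 21.0 FPKM, and in every panel the groups overlap.

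The glutathione S-transferases were the largest role, with 22 genes of which 18 were tested, and summed to 641.6 ± 70.4 FPKM in vehicle and 664.7 ± 40.7 FPKM in trametinib hearts. Of the log2 fold changes, 15 were above 0 and 3 below, with a median of 0.11. *Gstm1*, *Gstm2* and *Gstp1* made 53.8% to 60.7% of the sum. *Gstm1* (chr3:108012255-108017973, reverse strand), the main mu-class enzyme, was at 185, 174, 165, 172 and 161 FPKM in vehicle and 188, 175, 198, 167 and 163 FPKM in trametinib hearts. All 10 values lay between 161 and 198 FPKM (log2 fold change 0.05, 95% interval −0.13 to 0.24, adjusted p = 0.917), and 34.3% of its 31-base windows occur in other genes, mainly *Gstm2-ps1*. *Gstp1* (chr19:4035407-4037921, reverse strand), the pi-class enzyme, was at 172, 144, 103, 109.9 and 95.4 FPKM in vehicle and 133, 129.9, 127, 149 and 110.1 FPKM in trametinib hearts. Vehicle 1 was highest and vehicle 5 lowest, so that the vehicle group spanned the whole trametinib range (log2 fold change 0.08, adjusted p = 0.934), and 67.5% of its windows are shared with *Gstp2*.

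The transferases with the largest fold changes were low in level. *Gsta1* (chr9:78230656-78242684, forward strand), an alpha-class enzyme known from liver, was at 0.808, 1.74, 0.809, 1.13 and 0.287 FPKM in vehicle and 2.502, 0.731, 1.92, 2.16 and 1.46 FPKM in trametinib hearts, on only 4 to 41 fragments per heart. Trametinib 2 lay below 4 of the 5 vehicle hearts and the groups overlapped (means 0.955 ± 0.533 and 1.76 ± 0.687, log2 fold change 0.88, SE 0.40, 95% interval 0.00 to 1.77, adjusted p = 0.652, or 0.57 without vehicle 5). As 92.2% of its windows occur elsewhere, mainly in *Gm3776*, the assignment of these fragments is uncertain. *Gsto2* (chr19:47865545-47886324, forward strand), an omega-class enzyme that reduces dehydroascorbate, was at 0.805, 0.805, 0.453, 0.880 and 0.443 FPKM in vehicle and 0.790, 1.62, 1.19, 0.649 and 0.862 FPKM in trametinib hearts. Its 10 to 43 fragments per heart gave a log2 fold change of 0.51 (SE 0.27, adjusted p = 0.696), with trametinib 2 and trametinib 3 above every vehicle heart. *Gsta3* and *Gstt1* came next, with log2 fold changes of 0.45 and 0.38 and coefficients of variation of 41.8% and 36.2% over the 10 hearts (adjusted p = 0.776 and 0.786).

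At the other end, *Gstm5* (chr3:107895821-107898686, forward strand), a mu-class enzyme of brain and testis, was at 43.9, 40.1, 41.0, 35.6 and 36.9 FPKM in vehicle and 33.0, 38.3, 39.8, 36.7 and 32.4 FPKM in trametinib hearts. All 5 trametinib hearts were below the vehicle median, with overlap through vehicle 4 and vehicle 5 (means 39.5 ± 3.30 and 36.0 ± 3.25, log2 fold change −0.13, SE 0.09, adjusted p = 0.771), and the antisense gene *4933431E20Rik* overlaps its exons. The estimate for *Gsta4*, which conjugates the lipid peroxidation product hydroxynonenal, was the closest to 0 of all members, with means of 46.6 ± 1.22 and 46.8 ± 5.12 FPKM. The remaining 10 tested transferases (*Gstm2*, *Gstm4*, *Gstm6*, *Gstm7*, *Gsto1*, *Gstk1*, *Gstp2*, *Gstt2*, *Gstt3* and *Gstz1*) had log2 fold changes from −0.02 to 0.20. *Gsta2* reached at most 13 fragments in a heart, *Gstp3* at most 4, and *Gstt4* and *Gstm3* at most 1 each.

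Among the microsomal transferases, *Mgst3*, an enzyme with glutathione peroxidase activity, made 90.7% to 94.3% of the FPKM. It lies at chr1:167371966-167393841 on the reverse strand and was at 347, 300.1, 242, 309 and 248 FPKM in vehicle and 326, 302, 312, 341 and 271 FPKM in trametinib hearts. The groups shared most of their range (log2 fold change 0.11, 95% interval −0.14 to 0.37, adjusted p = 0.860). *Mgst1* (chr6:138140316-138156755, forward strand), the membrane-bound form of the outer mitochondrial membrane and endoplasmic reticulum, was at 30.2, 30.3, 24.7, 31.1 and 22.1 FPKM in vehicle hearts 1 to 5 and 21.0, 27.9, 19.5, 20.7 and 19.9 FPKM in trametinib hearts 1 to 5. Trametinib 1, 3, 4 and 5 were below every vehicle heart, and trametinib 2 stood among the vehicle hearts. The means were 27.7 ± 4.04 and 21.8 ± 3.46 FPKM (SD, n = 5, 577 to 1022 fragments per heart), with a log2 fold change of −0.34 (SE 0.13, 95% interval −0.63 to −0.06, adjusted p = 0.563). It was −0.48 without the 3 hearts rich in atrial transcripts, with an adjusted p of 0.577. After rescaling each heart to the same FPKM total it was −0.26, with an adjusted p of 0.675. *Mgst2* reached at most 9 fragments in any heart.

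The superoxide dismutases and catalase summed to 184.5 ± 13.4 FPKM in vehicle and 193.8 ± 10.1 FPKM in trametinib hearts. *Sod1*, *Sod2* and *Cat*, the cytosolic and mitochondrial dismutases and the peroxisomal catalase, were each near 60 FPKM. Their vehicle means were 60.1 ± 16.6, 52.8 ± 5.51 and 59.6 ± 5.89 FPKM and their trametinib means 64.7 ± 8.47, 57.4 ± 2.93 and 62.9 ± 6.51 FPKM (log2 fold changes 0.14, 0.13 and 0.08, adjusted p = 0.895, 0.781 and 0.895). *Sod3* (chr5:52363791-52371418, forward strand), the extracellular dismutase bound to the vessel wall and matrix, was at 9.95, 13.1, 9.97, 11.0 and 15.9 FPKM in vehicle hearts 1 to 5 and 8.16, 11.6, 9.49, 7.06 and 7.51 FPKM in trametinib hearts 1 to 5. Trametinib 1, 3, 4 and 5 lay below every vehicle heart and trametinib 2 lay between vehicle 4 and vehicle 2. The means were 11.97 ± 2.53 and 8.76 ± 1.83 FPKM (SD, n = 5, 441 to 864 fragments per heart), with a log2 fold change of −0.44 (SE 0.16, 95% interval −0.80 to −0.09, adjusted p = 0.554). After rescaling each heart to the same FPKM total the log2 fold change was −0.37, with an adjusted p of 0.642. Smooth-muscle and pericyte markers, which mark cells of the vessel wall, summed to 152 to 215 FPKM in vehicle and 161 to 180 FPKM in trametinib hearts, and their part in the *Sod3* values was not tested. *Sod3* and *Mgst1* were the 2 members whose groups did not overlap once trametinib 2 was left out, against 2.70% of all genes then.

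*Nqo1* and *Hmox1* are the Nrf2 targets most often read as a sign of an oxidative response. *Nqo1* (chr8:107388225-107403206, reverse strand), a quinone reductase, was at 23.8, 32.2, 21.1, 32.9 and 25.5 FPKM in vehicle and 27.6, 32.8, 32.1, 30.2 and 39.4 FPKM in trametinib hearts. All 5 trametinib hearts were above the vehicle median, but vehicle 2 and vehicle 4 lay as high as most of them (means 27.1 ± 5.21 and 32.4 ± 4.39, log2 fold change 0.27, SE 0.14, 95% interval −0.04 to 0.57, adjusted p = 0.684). *Hmox1* (chr8:75093621-75100589, forward strand), inducible haem oxygenase, was at 3.33, 5.70, 4.50, 3.36 and 7.57 FPKM in vehicle and 5.36, 5.42, 4.39, 5.21 and 5.42 FPKM in trametinib hearts. The vehicle hearts spread from 3.33 to 7.57 FPKM around the tight trametinib values (means 4.89 ± 1.79 and 5.16 ± 0.438, log2 fold change 0.14, 95% interval −0.30 to 0.59, adjusted p = 0.909), with 0.02 without vehicle 1 and 0.31 without vehicle 5.

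The tested members were also counted by their sequence features. The 6 tested selenocysteine members had 3 log2 fold changes above 0 and 3 below, with a median of −0.02. The 8 members with TGACNNNGC in the promoter had 5 above and 3 below (median 0.08), and the 32 tested members with a promoter but without these letters had 26 above and 6 below (median 0.09). The 9 members with at least 10% of their windows shared with another gene were all above 0 with a median of 0.0835, and of the other 38, with a median of 0.0758, 25 were above 0. Over all genes 52.1% were above 0. Among the 9, *Gpx4*, *Gstm1* and *Gstp1* fell as low as −0.0295, −0.0017 and −0.0858 under other settings. The counts were made without a test.

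The members differed widely in how steady they were between hearts. Over the 10 hearts the median coefficient of variation of the members was 17.4%, against 17.9% for all genes. *Txn2* (5.20%), *Prdx3* (6.10%), *Gpx8* (6.45%), *Gstm1* (6.94%) and *Gsta4* (7.52%) were the steadiest. *Gsta1* (52.9%), *Gstp2* (43.1%), *Gsta3* (41.8%), *Gsto2* (40.6%), *Gstt1* (36.2%) and *Gpx3* (35.5%) varied most, and of these only *Gpx3* was highly expressed. Vehicle 3 was the lowest heart for 14 of the 47 members, where 16.9% of all genes were lowest in it, and vehicle 1 was the highest for 15, where 14.2% of all genes were highest in it.

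The genes around the system were taken from 7 lists, 143 genes of which 123 were tested. None passed the adjusted test, 9 had an unadjusted limma p under 0.05 (7.32%, against 7.62% of all genes), and 3 had groups that did not overlap (2.44%, against 1.64%). The regulators of Nrf2 gave 8 log2 fold changes above 0 and 4 below among 12 tested, with a median of 0.04. *Maff*, a small Maf partner of Nrf2, was at 5.33 ± 1.77 FPKM in vehicle and 3.50 ± 0.927 FPKM in trametinib hearts (log2 fold change −0.58, adjusted p = 0.606). The glutaredoxins and other thioredoxin-fold and repair enzymes split evenly (14 and 14, median 0.0013), as did glutathione supply and turnover (11 and 11, median 0.0026). In the latter *Dpep1*, the dipeptidase that cleaves cysteinylglycine, was at 30.9, 35.8, 43.5, 33.1 and 46.7 FPKM in vehicle and 22.9, 27.1, 28.1, 23.5 and 28.1 FPKM in trametinib hearts. The groups did not overlap, and the log2 fold change was −0.54 (SE 0.13, adjusted p = 0.289).

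NADPH supply, on which both thiol systems draw, had 9 of 15 above 0 with a median of 0.06. *Nadk*, the cytosolic NAD kinase, had means of 10.7 ± 1.60 and 8.77 ± 0.475 FPKM (log2 fold change −0.28, SE 0.11, adjusted p = 0.563). *Nnt*, the mitochondrial transhydrogenase that makes NADPH from the proton gradient, was under the filter at 0.144 ± 0.0646 and 0.262 ± 0.111 FPKM, on 10 to 42 fragments per heart. That entry spans chr13:119335448-119408997 on the reverse strand. Another *Nnt* entry inside it on the same strand (chr13:119335528-119408952) was listed at 0 in every heart. How fragments shared by these entries were counted was not tested, so the level of *Nnt* is uncertain. Selenoprotein synthesis and other selenoproteins had 13 of 19 above 0, with a median of 0.03 and no unadjusted limma p under 0.05.

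The list of other Nrf2 targets and of metal and haem handling split into 9 and 9 with a median of 0.0039. It held the gene nearest to the threshold, *Mt1*, a metallothionein that binds zinc and copper and is also induced by glucocorticoids. *Mt1* was at 219, 228, 246, 214 and 279 FPKM in vehicle hearts 1 to 5 and 161, 152, 128, 181 and 119 FPKM in trametinib hearts 1 to 5. Every trametinib heart was below every vehicle heart (means 237 ± 26.4 and 148 ± 25.0, 2336 to 5058 fragments per heart), with a log2 fold change of −0.69 (SE 0.13, adjusted p = 0.125). *Nqo2*, a quinone reductase related to *Nqo1*, had means of 5.62 ± 0.751 and 7.04 ± 0.374 FPKM (log2 fold change 0.33, SE 0.10, adjusted p = 0.478).

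Oxidant sources were the list whose members leaned furthest to 1 side. Of 9 tested, 8 had log2 fold changes below 0 (median −0.27, where 47.9% of all genes were below 0). Of the 8, *Cyba* and *Maoa* were at −0.0026 and −0.0038. The count below 0 was 6 of 9 after rescaling each heart to the same FPKM total, where 32.6% of all genes were below 0, and 6 to 9 of 9 leaving out 1 heart. *Ncf1*, the organiser subunit of the phagocyte NADPH oxidase, was at 2.34, 2.59, 2.42, 2.22 and 4.18 FPKM in vehicle and 1.75, 1.80, 2.10, 1.83 and 1.25 FPKM in trametinib hearts. The groups did not overlap, with a log2 fold change of −0.60 (SE 0.18, adjusted p = 0.461). *Xdh*, xanthine dehydrogenase, an oxidase form of which makes superoxide, had means of 10.9 ± 2.29 and 8.06 ± 1.78 FPKM (log2 fold change −0.44, SE 0.18, adjusted p = 0.596). The 6 macrophage markers were all on the lower side in trametinib hearts, with sums of 342.7 to 576.2 FPKM in vehicle and 277.0 to 342.6 FPKM in trametinib hearts. Their part in the values of *Ncf1*, *Ncf4*, *Cybb* and *Rac2* (log2 fold changes −0.60, −0.45, −0.27 and −0.22) was not tested. Of the 6 endothelial markers, 5 were also on the lower side and 1 on the higher, and their part in the values of *Xdh* was not tested.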

How the data were processed

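RNA from 10 hearts, 5 per treatment group as the labels give them, had been sequenced as mRNA libraries. The authors deposited FPKM per gene. Their processing notes name fastp, STAR 2.5, HTSeq 0.6.1 and mm10, without role or order. Coordinates in the table were those of GENCODE M21 (GRCm38) for 98.3% of 54409 matched genes. FPKM multiplied by gene length gave whole fragments, from which depth was taken.

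After adding a pseudocount of 0.1 FPKM and taking log2, trametinib was compared with vehicle by limma 3.58.1 (R 4.3.3, moderated statistics with a mean-variance trend, no covariates). The 12602 genes averaging 0.5 FPKM or more entered the fit, and Benjamini-Hochberg adjustment covered all of them. The pseudocount shrinks the fold change of weakly expressed genes. The fit was also run on counts simulated with the same spread for every gene and no differences in composition between hearts. That run does not show how small a change could be found in these hearts. P-values set each group difference against the spread between these hearts, moderated over genes, and counting limits cover counting error only. Members and lists were chosen with earlier results of these data known. The members described one by one were the 8 with the highest mean, the 6 smallest p-values in each direction, and *Gclc*, *Gclm*, *Nqo1*, *Hmox1*, *Txnip* and *Txnrd1*. Shared 31-base windows were counted between GENCODE transcripts, and promoters were taken from RefSeq. Alternatives covered the pseudocount, filter, scaling, variance model, replicate block, voom on the recovered fragments, gene classes and omission of hearts. Replicate numbers did not pair the hearts (correlations of same-numbered deviations from −0.15 to −0.02). Sequences of proteins were not used here. Summaries and figures used Python 3.11.15, pandas 2.3.3, scipy 1.17.1 and matplotlib 3.10.9.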

Additional observations from a re-analysis of the deposited data

Results flagged for a closer look

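The hearts of each group were screened for the 22 members described one by one plus the member sum, by asking whether 1 heart lay further from the nearest other than Dixon's 95% limit for 5 values allows. Of 46 sets of 5 hearts, 3 met this, and chance alone gives about 2.3. *Mgst1* was at 27.9 FPKM in trametinib 2, where the other 4 trametinib hearts were at 19.5 to 21.0 FPKM. *Hmox1* was at 4.39 FPKM in trametinib 3, where the others were at 5.21 to 5.42 FPKM. *Txnrd1* was at 7.90 FPKM in trametinib 5, where the others were at 4.62 to 5.36 FPKM.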

How the results depend on the processing

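No member and no gene of the 7 lists passed the adjusted threshold under any of the 24 alternatives, and the lowest adjusted p of a named member was 0.277 (*Txnrd3* without vehicle 3). The number of all genes passing was 10. It was 18 with array weights, 2 with a mean of at least 5 FPKM, 0 without X, Y and mitochondrial genes, 5 without the 3 hearts richest in atrial transcripts, and 5 to 13 leaving out 1 heart (5 without vehicle 2). With the replicate number as a block it was 4, though the numbers did not pair the hearts, and no vehicle heart correlated best with the trametinib heart of its own number. Members with an unadjusted limma p under 0.05 numbered 4 of 47, where 7.62% of all genes had one. They were 2 of 47 at equal FPKM totals (all genes 8.01%), 2 of 36 at the higher filter (7.89%), 6 of 47 after quantile normalization (7.74%), and 2 to 6 of 47 leaving out 1 heart (6.43% to 9.99%), with 2 without trametinib 3. Members without overlap numbered 0. At equal totals there was 1 (*Txnrd3*, all genes 1.60%), leaving out 1 heart there were 0 to 2 (2.42% to 3.63%), and without the 3 atrial-rich hearts there were 4 (*Gstm5*, *Prdx6*, *Mgst1* and *Sod3*), when 7.25% of all genes did not overlap. Quantile normalization gave no such count. Signs were followed only for the 22 members described one by one. They turned for 6 of these, of which *Gclc* had the estimate furthest from 0 (−0.29). After quantile normalization *Prdx5* was at −0.0060, *Gstm1* −0.0017 and *Gstp1* −0.0026, with array weights *Gclm* was at −0.0257, and without the 3 atrial-rich hearts *Gstp1* was at −0.0858 and *Gclc* at 0.0111. Leaving out 1 heart, the log2 fold change ran from −0.0295 to 0.125 for *Gpx4*, from −0.0023 to 0.140 for *Prdx5*, from −0.0045 to 0.208 for *Gstp1* and from −0.0403 to 0.117 for *Gclm*. Without sign changes it moved by over 1.5 times for *Mgst3* (0.05 to 0.18), *Gstm1* (0.01 to 0.08), *Prdx2* (0.05 to 0.14) and *Prdx3* (0.05 to 0.11), and for 7 members whose values stand beside them above. The cause was not tested.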
